A study of Mus musculus with 22 samples.

Results

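Growing oocytes of mice at postnatal day 7 (P7) labelled as lacking Setd2 were compared with oocytes labelled as keeping 1 functional copy. All genes with at least 1 FPKM (fragments scaled for transcript length and library size) in at least 2 of the 4 libraries were taken, which gave 10794 of the 22592 gene and transcript names in the table. The knockout group is labelled Setd2-/- and the control group Setd2+/-, so the controls also carried a mutant allele. Each group had 2 libraries, 4 of the 22 in the series, made by Smart-seq2 from oocytes of 20 to 30 µm in diameter that were collected in M2 medium. The labels give no strain, no Cre driver and no number of oocytes or animals per library. Full-grown oocytes of Setd2 knockout and control females (2 libraries each, from females 8 weeks old, 48 h after PMSG, a hormone that drives follicle growth) came in another table and are set beside the P7 values below. That table also holds embryos from females of the same age, which entered its main fit. These were 1-cell controls and knockouts collected after the hormone hCG, 2-cell controls and another group of 1-cell knockouts. No tests were made between the tables, and the study asked across these stages how histone marks and transcription relate in the oocyte.

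Setd2 places 3 methyl groups on lysine 36 of histone H3 while RNA polymerase II transcribes a gene. This mark, H3K36me3, is bound by reader proteins that act in DNA methylation, splicing and repair. At P7 the oocytes of a mouse ovary have recently left the primordial pool, have begun to grow and build their egg coat, and are acquiring maternal DNA methylation over the following days and weeks.

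Setd2 itself was measured at 3.67 and 3.21 FPKM in the knockout libraries, against 4.33 and 6.68 FPKM in the controls. Both knockout libraries lay below both controls, but the difference did not pass the test (log2 change of FPKM + 1 of -0.53 ± 0.40 SE, limma adjusted p = 0.799). The labels do not say which part of the gene was removed, and the value covers the whole transcript, so it cannot show whether the deleted part was absent. In full-grown oocytes the same transcript stood at 0.968 and 0.927 FPKM in the knockout libraries, against 4.75 and 4.35 FPKM in the controls (change of -1.51, limma adjusted p = 0.0102).

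By limma, 8 genes were called higher and 1 lower in the P7 knockout at a Benjamini-Hochberg adjusted p of 0.05, which is 0.0741% and 0.00926% of the genes tested. At an unadjusted p of 0.05 the counts were 350 higher (3.24%) and 518 lower (4.8%). In 1719 genes (15.9%) both knockout libraries lay above both controls, and in 2321 genes (21.5%) both lay below. The median log2 change of all genes tested was -0.042. An exact permutation of 2 libraries against 2 cannot give a p below 0.33, so each call rests on the variance that limma shares between genes. The labels do not tie the libraries to separate animals, so the p-values may describe technical spread alone.

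The 4 libraries were alike in content, with between 10394 and 10554 genes at 1 FPKM or more in each. Their approximate depth, from the smallest step between low FPKM values, was 5.90 M and 5.39 M fragments in the knockout. In the controls it was 6.19 M and 5.39 M. The estimate used 51 to 55 values per library. It looked only for steps within a preset range, which limits how far the libraries could differ. Across the tested genes the Spearman correlation was 0.951 between the knockout replicates, 0.956 between the control replicates and 0.945 to 0.950 between groups, as a description over genes of libraries of 1 cell type. Replicates differed more at low levels: for the 3357 genes with a mean under 5 FPKM the median log2 difference was 0.492 between the knockout replicates and 0.478 between the controls, and for the 991 genes averaging 100 FPKM or more it was 0.156 and 0.144. The oocyte markers summed to 7363 and 8832 FPKM in the knockout and 7801 and 8948 FPKM in the controls, with the germ cell gene Ddx4 at 116 and 143 FPKM in the knockout and 123 and 146 FPKM in the controls. Of 18 granulosa cell markers 6 were listed at 0 in all 4 libraries, among them the receptor gene Fshr and the hormone gene Amh. The granulosa sum was 16.5 and 4.49 FPKM in the knockout, 13.5 FPKM of the first from Krt18 alone, and 4.05 and 5.25 FPKM in the controls. The 14 theca and stroma markers summed to 4.88 and 3.49 FPKM in the knockout and 3.82 and 4.45 FPKM in the controls, and the 15 blood, immune and endothelial markers to 5.57 and 10.03 FPKM in the knockout and 5.44 and 6.37 FPKM in the controls. Of the tested theca, stroma, blood, immune and endothelial markers, Dcn and C1qb were higher and Pecam1 lower without overlap. Hsd3b1 overlapped, and none of them was called. FPKM values are relative to each library's total, so fewer cells of a type and less RNA per cell cannot be told apart in these bulk libraries.

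**Figure D1:**
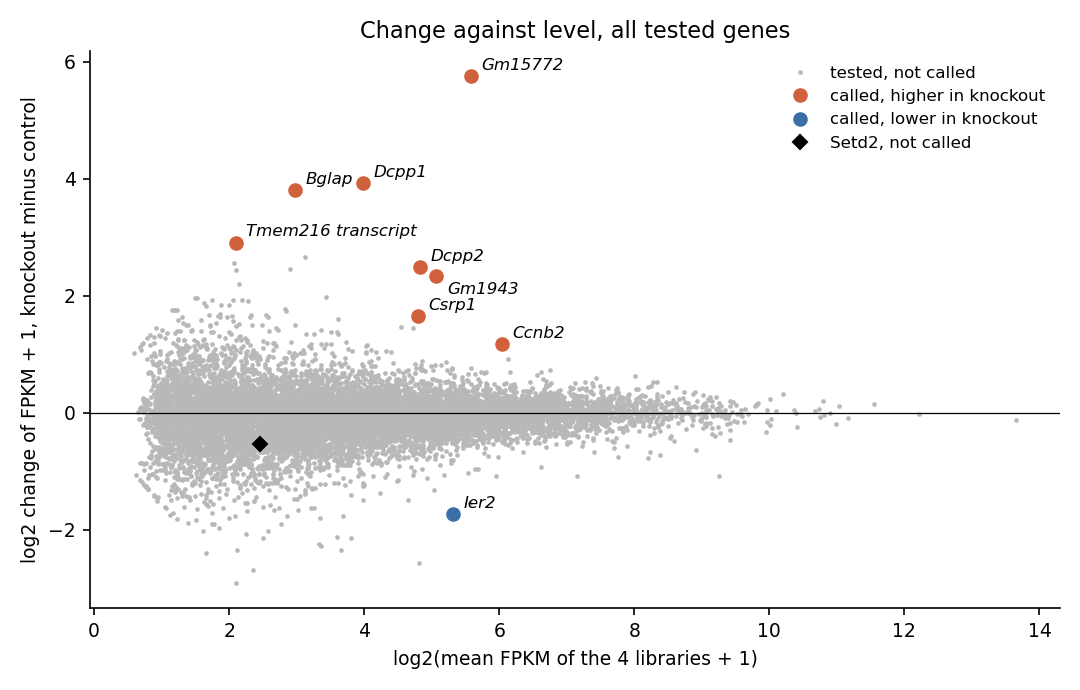
Log2 change (knockout minus control, log2 of FPKM + 1) of the 10794 tested genes against their mean level over the 4 libraries, each point a gene. The 8 genes called higher lie between 1.17 and 5.76, Ier2 lies at -1.73, and Setd2 at -0.53 lies within the cloud of genes that were not called. The position of Bglap, listed at 0 in both controls, depends on the added 1.

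The clearest rise was in the Dcpp family, a cluster of neighbouring genes on chromosome 17 known for secreted proteins of the salivary glands (demilune cell and parotid protein). The windows around the start sites of the 3 members, from RefSeq for GRCm38.p6, are shown because members of the family differed in how much they moved while their upstream sequence is close to identical. Each runs from 250 bases before to 50 bases after the start, on the plus strand. Capitals in Dcpp1 mark bases that differ from Dcpp2, and capitals in Dcpp2 and Dcpp3 bases that differ from Dcpp1, with bases that have no aligned partner also in capitals.
Dcpp1, chr17:23880626-23880925: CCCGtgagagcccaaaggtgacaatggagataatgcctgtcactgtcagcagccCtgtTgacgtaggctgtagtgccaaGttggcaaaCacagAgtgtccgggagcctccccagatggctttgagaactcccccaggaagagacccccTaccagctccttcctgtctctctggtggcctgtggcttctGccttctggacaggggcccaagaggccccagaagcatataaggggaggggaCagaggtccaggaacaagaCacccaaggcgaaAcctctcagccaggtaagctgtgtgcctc
Dcpp2, chr17:23898472-23898771: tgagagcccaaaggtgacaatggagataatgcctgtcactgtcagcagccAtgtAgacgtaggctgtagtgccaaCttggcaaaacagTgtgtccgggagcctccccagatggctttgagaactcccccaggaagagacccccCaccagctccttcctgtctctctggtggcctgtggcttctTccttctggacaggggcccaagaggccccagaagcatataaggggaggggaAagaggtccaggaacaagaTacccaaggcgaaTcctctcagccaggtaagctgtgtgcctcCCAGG
Dcpp3, chr17:23917208-23917507: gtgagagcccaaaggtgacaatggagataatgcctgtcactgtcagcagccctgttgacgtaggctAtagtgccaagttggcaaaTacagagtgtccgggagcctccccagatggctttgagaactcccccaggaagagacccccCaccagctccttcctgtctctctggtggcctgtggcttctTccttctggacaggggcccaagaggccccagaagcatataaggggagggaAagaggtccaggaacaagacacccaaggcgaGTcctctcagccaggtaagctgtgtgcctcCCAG

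Over their aligned bases the window of Dcpp1 was 96.9% identical to that of Dcpp2 and 97.6% to that of Dcpp3, and Dcpp2 and Dcpp3 were 97.7% identical. Each window held 1 match to CANNTG (searched on both strands, on which it reads the same), a motif found in 72.3% of 32851 promoters of the same length, and none to TATAAA, found in 13.6% on either strand. Only exact matches were counted, and all the windows hold TATAAG, which differs from TATAAA in its last base. The authors' alignment used the mm9 build, in which these positions were not looked up. The transcripts are also close: Dcpp1 and Dcpp2 were 94.5% identical over 586 aligned bases, and Dcpp2 and Dcpp3 96.9% over 678, so the division of fragments among them is uncertain.

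Dcpp1 had 29.3 and 27.6 FPKM in the knockout libraries, against 1.66 and 0.406 FPKM in the controls. Dcpp2 had 50.7 and 43.6 FPKM in the knockout, against 8.195 and 7.01 FPKM in the controls. For both genes the knockout replicates lay close together and the groups far apart, with log2 changes of 3.93 ± 0.39 and 2.48 ± 0.25 (SE, limma adjusted p = 0.00118 for each). Dcpp3 stood at 9.69 and 8.12 FPKM in the knockout, against 4.95 and 2.89 FPKM in the controls. Its groups did not overlap either, but its change of 1.04 ± 0.38 did not pass (limma adjusted p = 0.539).

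Added together, the 3 Dcpp genes gave 89.7 and 79.4 FPKM in the knockout, against 14.8 and 10.3 FPKM in the controls. This sum, which depends less on how fragments were divided among the copies, rose by 2.67 ± 0.23 on the log2 scale (limma adjusted p = 0.00032 in a fit with copies summed). The annotated neighbours of the cluster had no measured RNA: the protease genes Prss41, Prss32 and Prss21 and the genes Sbp and Sbpl were listed at 0 in all 4 P7 libraries. Dcpp1 and Dcpp2 kept their calls whichever of the 4 libraries was left out.

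The osteocalcin family, 3 neighbouring genes on chromosome 3 for a hormone and matrix protein of bone, held 1 call. Bglap had 18.3 and 9.17 FPKM in the knockout, while both controls were listed at 0 (limma adjusted p = 0.00595). Bglap2 had 3.58 and 1.48 FPKM in the knockout, while both controls again showed 0 (limma adjusted p = 0.456). Bglap3 had 7.89 and 27.4 FPKM in the knockout, against 2.89 and 11.1 FPKM in the controls, so its groups overlapped (limma adjusted p = 0.624). The transcripts of Bglap and Bglap2 were 98.9% identical over 439 aligned bases and those of Bglap and Bglap3 96.4%. The sum of the 3 was 29.7 and 38.0 FPKM in the knockout, against 2.89 and 11.1 FPKM in the controls, and did not pass (change of 2.33 ± 0.42, limma adjusted p = 0.0935). The call of Bglap therefore holds for that copy as counted and not for the family.

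The smallest p of all belonged to Gm15772, a transcribed pseudogene that RefSeq lists with the synonym Rpl26. It is named although its symbol is not an established name, as is Gm1943 below, both chosen after their values were seen. Gm15772 had 128 and 58.1 FPKM in the knockout, against 1.41 and 0.0867 FPKM in the controls (log2 change of 5.76 ± 0.44, limma adjusted p = 0.000155). Its transcript is 99.5% identical to that of Rpl26, a protein of the large ribosomal subunit, over 432 aligned bases. Rpl26 had 80.6 and 167 FPKM in the knockout, against 178 and 169 FPKM in the controls. The library with the most Gm15772 had the least Rpl26, and the sum of the pair was 209 and 225 FPKM in the knockout, against 179.9 and 169 FPKM in the controls. That sum did not pass (change of 0.32 ± 0.14, limma adjusted p = 0.595).

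**Figure D2:**
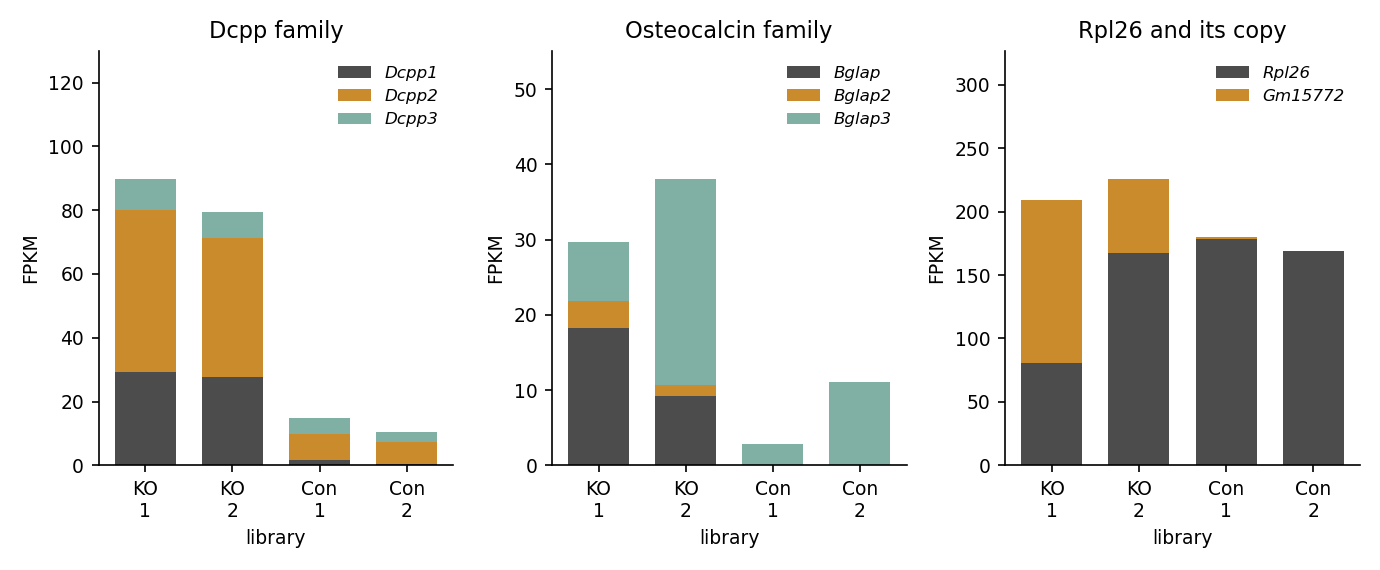
Stacked FPKM of gene copies that share sequence, in the 2 knockout (KO) and 2 control (Con) libraries. The Dcpp sum is 89.7 and 79.4 in the knockout and 14.8 and 10.3 in the controls, the osteocalcin sum 29.7 and 38.0 in the knockout and 2.89 and 11.1 in the controls, and the Rpl26 sum 209 and 225 in the knockout and 179.9 and 169 in the controls, with Gm15772 a visible part of it only in the knockout.

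A separate entry for 1 transcript of Tmem216, a protein at the base of the primary cilium, had 6.85 and 6.23 FPKM in the knockout and values close to 0 in both controls (0.000171 and 0.00209 FPKM, limma adjusted p = 0.0477). With all entries of the gene summed, Tmem216 had 23.5 and 18.5 FPKM in the knockout, against 9.13 and 14.5 FPKM in the controls, and the change of 0.80 ± 0.30 did not pass (limma adjusted p = 0.523). Gm1943, which RefSeq lists as a transcribed pseudogene on chromosome 8, had 69.4 and 41.3 FPKM in the knockout, against 9.04 and 10.5 FPKM in the controls. It rose by 2.34 ± 0.28 (limma adjusted p = 0.00478) and, like Gm15772, kept its call whichever library was left out.

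Outside these families, Csrp1 and Ccnb2 rose and Ier2 fell. Csrp1, a LIM-domain protein of the actin cytoskeleton, had 41.1 and 41.2 FPKM in the knockout, against 11.5 and 13.2 FPKM in the controls (change of 1.66 ± 0.23, limma adjusted p = 0.0203). Ccnb2, the cyclin B2 that partners Cdk1 at entry into meiotic division, had 91.3 and 89.4 FPKM in the knockout, against 41.4 and 37.9 FPKM in the controls (change of 1.17 ± 0.18, limma adjusted p = 0.0373). In both genes the 2 knockout libraries were nearly equal and lay well above the controls. Ier2, an immediate early gene that cells switch on within minutes of a stimulus, had 22.3 and 13.0 FPKM in the knockout, against 70.2 and 49.3 FPKM in the controls (change of -1.73 ± 0.28, limma adjusted p = 0.0477). In the 4 fits that each left out 1 library the limma adjusted p ran from 0.0483 to 0.0917 for Csrp1, from 0.0543 to 0.268 for Ccnb2 and from 0.00708 to 0.324 for Ier2, so Ccnb2 had no call in any of them, Csrp1 had one without knockout replicate 2, and Ier2 had one without knockout replicate 1. No tested gene among the 3 annotated neighbours on each side of Csrp1, Ccnb2 and Ier2 passed. Nav1 and Phlda3, next to Csrp1, had 2.89 and 2.97 FPKM and 5.06 and 3.49 FPKM in the knockout, against 5.22 and 3.70 FPKM and 5.37 and 0 FPKM in the controls. Myo1e and Rnf111, next to Ccnb2, had 5.44 and 4.89 FPKM and 9.23 and 6.97 FPKM in the knockout, against 5.33 and 8.28 FPKM and 7.56 and 11.1 FPKM in the controls. Of the genes next to Ier2, Nacc1 had 2.36 and 2.32 FPKM in the knockout, against 3.93 and 2.88 FPKM in the controls, and Cacna1a was under 1 FPKM in all 4 libraries and was not tested.

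**Figure D3:**
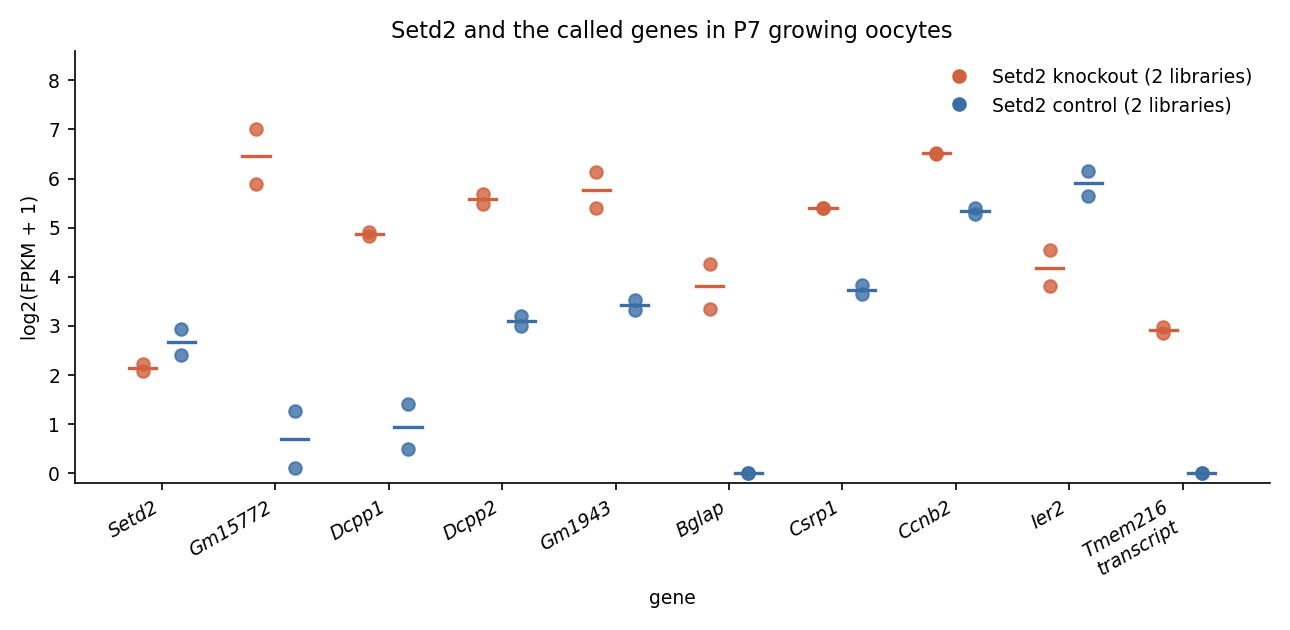
Log2(FPKM + 1) of Setd2 and the 9 called genes in every library, knockout to the left and control to the right of each tick, with the bar at the mean of the 2 libraries. The groups of all 10 genes are apart, with Setd2 showing the smallest gap and Bglap and the Tmem216 transcript lying at or near 0 in the controls.

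Further genes came next in p without passing the threshold in this fit, though some passed under other settings, given at the end. They were taken by smallest p from genes that averaged 5 FPKM or more in either group and had no overlap, so their separation is what chose them. Of the next 15 rises 10 have established names. Tmem116, a membrane protein, had 12.3 and 10.8 FPKM in the knockout, against 1.82 and 0.870 FPKM in the controls (limma adjusted p = 0.0524). Mtfr2, which acts in mitochondrial fission, had 31.2 and 43.6 FPKM in the knockout, against 10.3 and 16.2 FPKM in the controls (limma adjusted p = 0.122). Both knockout libraries lay above both controls in each gene, yet neither passed. The linker histone gene Hist1h1c had 35.8 and 29.8 FPKM in the knockout, against 16.2 and 7.69 FPKM in the controls. Ascl2, a basic helix-loop-helix factor best known from trophoblast, had 17.3 and 16.9 FPKM in the knockout, against 7.34 and 3.23 FPKM in the controls. Cd9, the tetraspanin that the egg needs to fuse with a sperm, had 301 and 322 FPKM in the knockout, against 225 and 180.3 FPKM in the controls. Cd9 was thus the most abundant of these rises and had the smallest change, 0.63 on the log2 scale. Yy2, a zinc-finger relative of Yy1, had 15.3 and 15.6 FPKM in the knockout, against 5.77 and 4.87 FPKM in the controls. Alg14, of the enzyme that builds the sugar chain for N-glycosylation, had 10.8 and 9.12 FPKM in the knockout, against 1.46 and 3.10 FPKM in the controls. In Yy2 and Ascl2 the knockout replicates were nearly equal. Omt2a, an oocyte-specific gene, had 24.4 and 18.7 FPKM in the knockout, against 8.32 and 10.05 FPKM in the controls, and Zfp784 had 5.94 and 6.55 FPKM in the knockout, against 0.456 and 0.694 FPKM in the controls. With Arhgdib as the last of the 10, the limma adjusted p ran up to 0.282.

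Of the next 15 falls 12 have established names, and these included genes that the oocyte uses in quantity. Oog3, an oogenesin of the PRAME family, had 0 listed for both knockout libraries and 5.28 and 7.86 FPKM in the controls (limma adjusted p = 0.0524). Wtap, which anchors the writer of m6A on RNA, had 205 and 230.2 FPKM in the knockout, against 380.3 and 360.5 FPKM in the controls (limma adjusted p = 0.0847). Gdf9, the growth factor with which the oocyte acts on its granulosa cells, had 222 and 243 FPKM in the knockout, against 367 and 373 FPKM in the controls (limma adjusted p = 0.146). Wtap and Gdf9 had replicates close together on both sides, in oocytes that hold much of either RNA. Shisa5, a membrane protein linked to apoptosis, had 17.2 and 30.2 FPKM in the knockout, against 60.5 and 76.8 FPKM in the controls (limma adjusted p = 0.0608). H2-K1, a class I histocompatibility antigen, had 166 and 155 FPKM in the knockout, against 275 and 269 FPKM in the controls (limma adjusted p = 0.0975). Oas1h, an oocyte member of the oligoadenylate synthetase family, had 376 and 379 FPKM in the knockout, against 557 and 618 FPKM in the controls (limma adjusted p = 0.146). In H2-K1 and Oas1h the replicates of each group were again close. Tesc, a calcium-binding protein, had 62.9 and 71.1 FPKM in the knockout, against 119 and 136 FPKM in the controls. Fabp2, a fatty acid binding protein known from the intestine, had 0.204 and 0.445 FPKM in the knockout, against 5.23 and 10.6 FPKM in the controls. Nmnat3, of mitochondrial NAD synthesis, had 8.28 and 17.1 FPKM in the knockout, against 37.1 and 34.0 FPKM in the controls. Fabp2 was thus under 1 FPKM in both knockout libraries, while Tesc and Nmnat3 were still well detected. Rab7l1, Plgrkt and Tox2 made up the rest, at 6.01 and 3.61, 1.95 and 2.65, and 6.25 and 7.04 FPKM in the knockout, against 24.0 and 13.8, 10.4 and 9.997, and 22.4 and 16.5 FPKM in the controls. The limma adjusted p of these 6 ran from 0.0847 to 0.199.

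The genes were then read by role, with lists that were compared by their counts and medians and given no test of their own. Of the 26 tested members of the H3K36 methylation machinery none was called, 8 had both knockout libraries above the controls and 7 below, beside 15.9% and 21.5% of all genes. The median log2 change was -0.093, and it ran from -0.18 without knockout replicate 2 to -0.020 without control replicate 2. Among its writers Setmar, a SET-domain protein, had 4.08 and 6.48 FPKM in the knockout, against 0.627 and 0.834 FPKM in the controls (limma adjusted p = 0.282). Setmar passed the filter through the knockout alone, so the count of 8 higher rests partly on that filter. Of enzymes that add fewer methyl groups to this lysine, Nsd1 had 7.32 and 7.64 FPKM in the knockout, against 10.3 and 8.55 FPKM in the controls, and Ash1l had 2.82 and 4.08 FPKM in the knockout, against 4.61 and 2.41 FPKM in the controls (limma adjusted p = 0.887 and 0.997). The groups of Ash1l overlapped, and those of Nsd1 lay apart by less than the control replicates differed. Of 14 tested genes of DNA methylation none was called, 5 were higher and 1 lower without overlap, and the median was 0.12, or 0.017 without control replicate 1. Dnmt3a, the enzyme that methylates DNA anew in the growing oocyte, had 6.65 and 5.19 FPKM in the knockout, against 7.58 and 6.83 FPKM in the controls (limma adjusted p = 0.928). Its partner Dnmt3l was listed at 0 in all 4 P7 libraries, while it had 78.7 and 97.7 FPKM in full-grown knockout oocytes and 107 and 118 FPKM in full-grown controls, levels taken from a table normalized separately.

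Of 23 immediate early genes 9 were tested, 1 was called (Ier2), 5 were lower without overlap, beside 21.5% of all genes, and none was higher. Zfp36 passed the filter through the controls alone, and Egr1, Fos and Junb each had 1 knockout library under 1 FPKM, so the count and the median do not describe the whole list. The median log2 change of the 9, which is the value of Zfp36, was -0.87 and depended on the settings: it was -0.28 over 21 members without the filter, -0.28 with a pseudocount of 5, -1.72 with a pseudocount of 0.1 and -0.32 without knockout replicate 2. Egr1, a zinc-finger factor of this class, had 5.11 and 0.829 FPKM in the knockout, against 18.8 and 12.1 FPKM in the controls (limma adjusted p = 0.225). Junb had 0.190 and 1.04 FPKM in the knockout, against 6.50 and 1.13 FPKM in the controls (limma adjusted p = 0.619), and Zfp36, an RNA-binding protein, had 0.499 and 0.326 FPKM in the knockout, against 1.89 and 1.29 FPKM in the controls (limma adjusted p = 0.726). Fos had 8.91 and 0.180 FPKM in the knockout, against 8.05 and 6.24 FPKM in the controls, so the first knockout library lay above both controls. All 4 lay below both controls in the second knockout library, and all but Fos did so in the first.

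Oocyte-specific clusters and secreted factors held no call. Of 21 tested members of the oogenesin, Oas1, Tcl1 and Fbxw clusters 9 were lower and 2 higher without overlap, beside 21.5% and 15.9% of all genes. Their median log2 change was -0.27, and it ran from -0.14 over 37 members without the filter to -0.44 without control replicate 1. Oog3 passed the filter through the controls alone. More members of the clusters fell under the filter without a control library than without a knockout library. The count and the median therefore do not describe all the clusters. Oas1d had 559 and 591 FPKM in the knockout, against 736 and 846 FPKM in the controls (limma adjusted p = 0.336), Oas1c had 289 and 354 FPKM in the knockout, against 399 and 497 FPKM in the controls (limma adjusted p = 0.474), and Tcl1, an activator of Akt kinase, had 445 and 545 FPKM in the knockout, against 595 and 674 FPKM in the controls (limma adjusted p = 0.554). Members of each cluster resemble one another, so fragments may be divided among them. Of 20 tested genes of oocyte growth and secretion 6 were lower and 1 higher without overlap, again beside 21.5% and 15.9% of all genes. The median was -0.16, or -0.044 over 15 members with a filter of 5 FPKM and -0.088 without control replicate 1. Bmp15, which pairs with Gdf9, had 5.29 and 5.88 FPKM in the knockout, against 10.2 and 9.37 FPKM in the controls (limma adjusted p = 0.627). Gja4, the connexin of the junctions with granulosa cells, had 168 and 171 FPKM in the knockout, against 209.8 and 214 FPKM in the controls (limma adjusted p = 0.59). The egg coat gene Zp3 overlapped between groups, with 738 and 1024 FPKM in the knockout, against 964 and 1243 FPKM in the controls (limma adjusted p = 0.662).

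Transcription factors and maternal-effect genes showed no call. Of 14 tested oocyte factors 3 were lower without overlap, a share close to the 21.5% of all genes, and none was higher. Among them Pou5f1, a pluripotency factor kept in oocytes, had 21.3 and 19.8 FPKM in the knockout, against 31.8 and 36.5 FPKM in the controls (limma adjusted p = 0.467). Figla, which drives the zona pellucida genes, had 929 and 960.2 FPKM in the knockout, against 1129.9 and 974 FPKM in the controls (limma adjusted p = 0.819). Of 21 tested maternal-effect genes 6 were higher and 3 lower without overlap, beside 15.9% and 21.5% of all genes. Ooep, of the subcortical maternal complex, had 359 and 397 FPKM in the knockout, against 284 and 243 FPKM in the controls (limma adjusted p = 0.321). Btg4, which recruits the deadenylase that clears maternal RNA, had 72.5 and 83.9 FPKM in the knockout, against 106 and 118 FPKM in the controls (limma adjusted p = 0.482). Of 44 tested cell cycle genes 1 was called (Ccnb2), and 8 were higher and 11 lower without overlap, beside 15.9% and 21.5% of all genes. Cdc25c, a phosphatase that activates the cyclin B kinase, had 4.93 and 8.40 FPKM in the knockout, against 0.850 and 1.94 FPKM in the controls (limma adjusted p = 0.331).

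The 2 Polycomb complexes, which silence genes through marks on other histone residues, had no member called. Of 16 tested genes of PRC1, which ubiquitinates histone H2A, 7 were lower and none higher without overlap, beside 21.5% and 15.9% of all genes. Their median log2 change was -0.38, or -0.23 with a pseudocount of 5. Cbx8, a chromodomain subunit, had 14.9 and 23.7 FPKM in the knockout, against 33.9 and 32.6 FPKM in the controls (limma adjusted p = 0.482), Cbx2 and Cbx7, related chromodomain proteins, had 10.9 and 10.03 FPKM and 8.55 and 7.45 FPKM in the knockout, against 14.5 and 19.0 FPKM and 10.4 and 14.2 FPKM in the controls (limma adjusted p = 0.622 and 0.713), and Pcgf1 had 13.9 and 16.7 FPKM in the knockout, against 22.0 and 23.3 FPKM in the controls (limma adjusted p = 0.622). Of 8 tested genes of PRC2, which methylates lysine 27 of histone H3, 4 were higher and none lower, beside 15.9% and 21.5% of all genes. Their median was 0.18, or 0.12 with a pseudocount of 5 and 0.073 without control replicate 1. The difference between the complexes was not tested. Its subunits Eed and Suz12 had 64.1 and 60.2 FPKM and 8.11 and 12.5 FPKM in the knockout, against 45.7 and 47.4 FPKM and 6.13 and 3.21 FPKM in the controls (limma adjusted p = 0.601 and 0.554). Of 17 tested genes of H3K4 methylation none was called, and 3 were higher and 4 lower without overlap, beside 15.9% and 21.5% of all genes. Their median was -0.089. The demethylase gene Kdm1a had 20.9 and 17.1 FPKM in the knockout, against 9.44 and 11.6 FPKM in the controls (limma adjusted p = 0.517), and Rbbp5, a core subunit of the methyltransferase complexes, had 9.64 and 11.04 FPKM in the knockout, against 15.3 and 20.2 FPKM in the controls (limma adjusted p = 0.563).

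**Figure D4:**
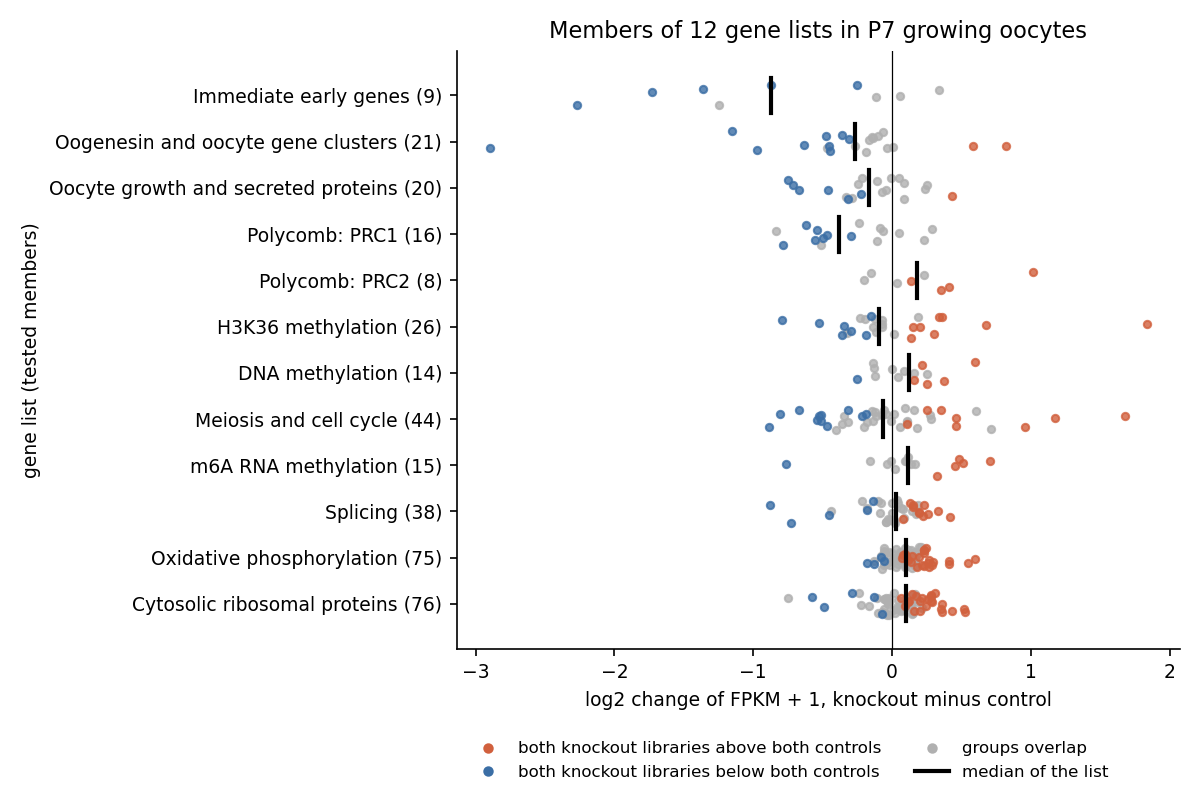
Log2 change (knockout minus control, log2 of FPKM + 1) of each tested member of 12 gene lists, coloured red-orange where both knockout libraries lay above both controls, blue where both lay below, and grey where the groups overlapped, with a black bar at the list's median. The medians run from -0.87 for immediate early genes and -0.38 for PRC1 to 0.18 for PRC2.

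Housekeeping lists had medians slightly above that of all genes. Of 75 tested genes of oxidative phosphorylation none was called, 24 (32%) were higher and 4 (5.33%) lower without overlap, beside 15.9% and 21.5% of all genes, and the median log2 change was 0.099. Complex I held 17 of the 24. Its subunit Ndufc1 had 195 and 221 FPKM in the knockout, against 147 and 127 FPKM in the controls (limma adjusted p = 0.282). Of 76 tested cytosolic ribosomal proteins none was called, 23 (30.3%) were higher and 5 (6.58%) lower, with a median of 0.098. Both lists hold short transcripts, with a median longest transcript of 1231 and 1076.5 nt beside 3238 nt for all genes. Among the shortest 3356 of the genes with a known length 17.7% were higher and 20.5% lower without overlap. The medians rest on the control libraries: without control replicate 2 they were 0.0070 for oxidative phosphorylation and 0.0058 for ribosomal proteins, and without control replicate 1 they were 0.16 and 0.20.

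Other lists held no call, and their counts without overlap stand beside 15.9% higher and 21.5% lower among all genes. Of 15 genes of m6A RNA methylation 5 were higher and 1, Wtap, lower. Of 38 splicing genes 11 were higher and 5 lower, of 37 DNA repair genes 5 were higher and 7 lower, and of 19 tested genes of the p53 response and apoptosis 3 were higher and 3 lower. Of 28 DNA replication genes 7 were higher and 4 lower, with Rpa3, a subunit of the protein that coats single-stranded DNA, at 119.9 and 144 FPKM in the knockout, against 63.4 and 98.3 FPKM in the controls (limma adjusted p = 0.362). Of 15 tested genes imprinted through maternal methylation 1 was higher and 3 were lower, and of 20 genes of piRNA and transposon silencing 4 were higher and 5 lower.

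The P7 calls were last set beside full-grown oocytes, where limma called 6.92% of 12199 genes. The median log2 change of all genes there was -0.19. That fit held all 12 libraries of the table. Besides the 4 of full-grown oocytes these were Setd2 control and knockout embryos, so its variance rests partly on embryos. Of the 9 P7 calls 8 were tested there, 2 were called in the same direction (Dcpp1 and Dcpp2) and none in the other. With only the 4 full-grown oocyte libraries of that table in the fit, limma called 27.6% of 10081 genes. Among them were 4 of the P7 calls. Dcpp1 and Dcpp2 were called in the same direction. Gm1943 (-0.97, limma adjusted p = 0.0289) and Ier2 (1.23, limma adjusted p = 0.0244) were called in the other. Dcpp1 had 24.3 and 20.1 FPKM in full-grown knockout oocytes, against 0.153 and 0.167 FPKM in controls, and Dcpp2 had 23.8 and 15.8 FPKM in the knockout, against 0.725 and 0.679 FPKM in controls. Dcpp3 had 8.09 and 9.99 FPKM in the knockout, against 31.9 and 14.5 FPKM in controls (limma adjusted p = 0.116). The sum of the 3, computed after seeing the data, was 56.2 and 45.9 FPKM in full-grown knockout oocytes, against 32.8 and 15.3 FPKM in controls, and its change of 1.14 ± 0.52 did not pass (limma adjusted p = 0.203). In that fit the calls of Dcpp1 and Dcpp2 therefore hold for the copies as counted. The family sum, which passed at P7, was higher there without overlap but was not called. No fit of the sum with only the 4 full-grown oocyte libraries is given here. Ccnb2 had 266 and 274 FPKM in full-grown knockout oocytes, against 279 and 251 FPKM in controls, so its groups overlapped there (change of 0.03 ± 0.22, limma adjusted p = 0.969). Csrp1 was low, with 3.89 and 4.35 FPKM in the knockout, against 2.53 and 3.06 FPKM in controls (limma adjusted p = 0.515). Bglap had 0.704 and 2.49 FPKM in the knockout, against 0.552 and 0.592 FPKM in controls (limma adjusted p = 0.606). Gm15772 was close to 0 in all 4 full-grown libraries, and Rpl26 had 48.5 and 42.7 FPKM in the knockout, against 69.6 and 75.8 FPKM in controls.

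**Figure D5:**
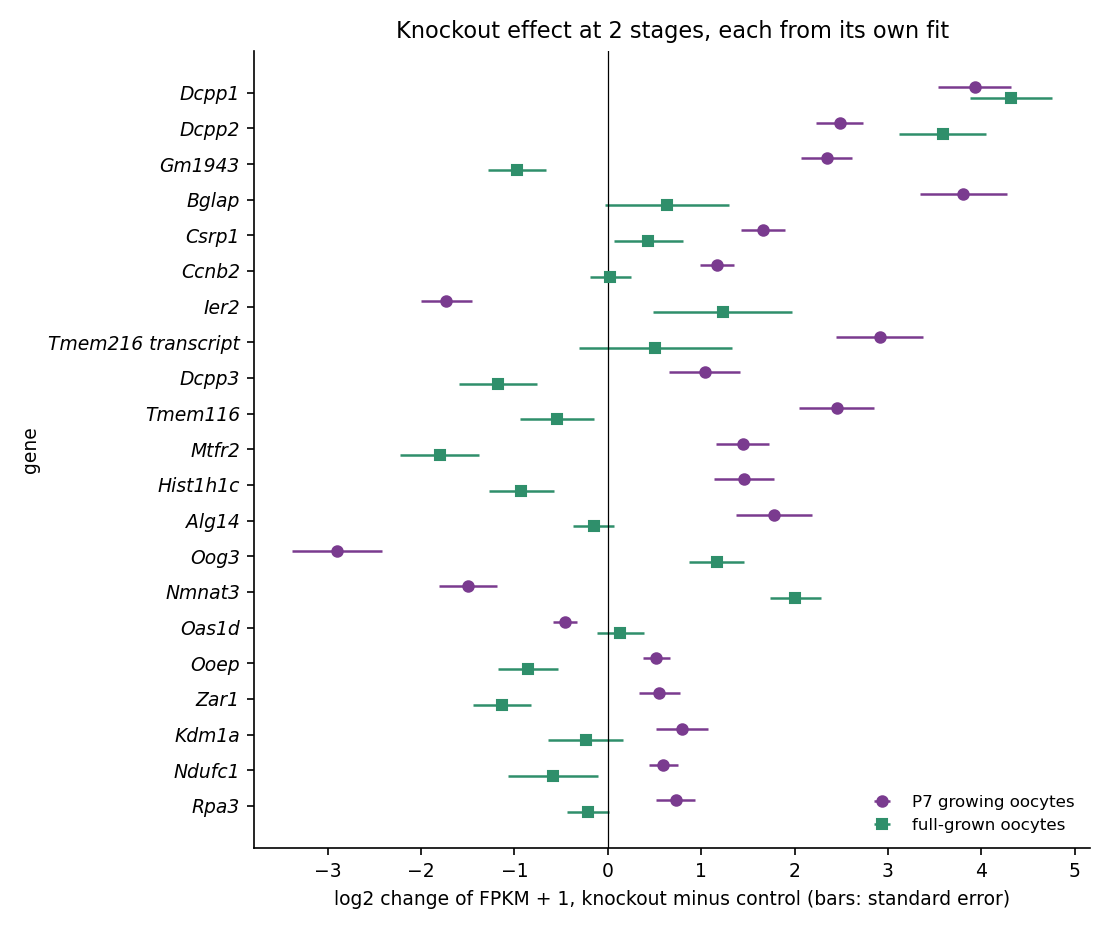
Log2 change (knockout minus control) with its standard error for the 8 P7 calls tested at both stages and for named genes whose groups did not overlap at either stage and pointed in opposite directions. Circles are P7 growing oocytes and squares full-grown oocytes, each from the fit of its own table. Dcpp1 (3.93 and 4.32) and Dcpp2 (2.48 and 3.59) lie far to the right at both stages.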

How the data were processed

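RNA of P7 growing oocytes and full-grown oocytes was sequenced after Smart-seq2 amplification, per the labels' protocols. The authors deposited FPKM values, normalized for transcript length and library size; the submitters' processing notes list TopHat2 2.0.11, Cufflinks 2.0.2 and the mm9 build. Counting error per gene is not in the files.

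From there, log2(FPKM + 1) was fitted with limma 3.58.1 (R 4.3.3; group means, variance trend) on genes that reached 1 FPKM in 2 or more libraries, and p-values were adjusted by Benjamini-Hochberg over all of them, with calls at 0.05. A fold change on this scale understates the change of low genes. Full-grown oocytes were fitted in their own table of 12 libraries, which also holds Setd2 control and knockout embryos. Sequences were aligned with Biopython 1.88.

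The genes and lists were chosen with earlier results of these data known. Named were Setd2, all called genes, the 15 rises and 15 falls next in p with a mean of at least 5 FPKM and no overlap, up to 4 members per list by smallest p, both gene families and up to 3 neighbours on each side of a called gene. Rpl26, Zfp36, Cbx2, Cbx7, Nsd1, Ash1l, Ddx4, Dnmt3a, Dnmt3l and Tcl1 fall partly outside that rule and were named after their values were seen. Symbols without an established name were counted, apart from Gm15772 and Gm1943. Alternatives varied the pseudocount, filter, scaling, variance model, replicate block and libraries.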

Additional observations from a re-analysis of the deposited data

Results flagged for a closer look

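Among 62 genes named with a fitted change, 15 had both knockout libraries on one side of both controls at P7 and on the other side in full-grown oocytes, and 18 had them on the same side at both stages. Most of the 62 were chosen because their groups were apart at P7: of the 59 that were, 25.4% turned round, beside 29.6% of the 4040 genes apart at P7 among all those tested, so the count is no result about the named genes. The difference between stages was not tested, since the tables were normalized separately, and log2 changes below are of FPKM + 1 at P7 unless said otherwise.

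Of these genes 2 were called by limma at P7. Gm1943 had a log2 change of 2.34 at P7, while in full-grown oocytes it had 20.8 and 21.4 FPKM in the knockout, against 32.2 and 55.4 FPKM in the controls. Ier2 had a change of -1.73 at P7, and its full-grown values were 2.96 and 5.51 FPKM in the knockout, against 0.776 and 1.64 FPKM in the controls.

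Another 3 were called by limma in full-grown oocytes and not at P7. Mtfr2, with 1.44 at P7, had 13.0 and 10.2 FPKM in the knockout, against 34.1 and 53.1 FPKM in the controls (limma adjusted p = 0.0318). Oog3, with -2.90 at P7 and both knockout libraries listed at 0 there, had 2435 and 1637 FPKM in the knockout, against 997 and 793 FPKM in the controls (limma adjusted p = 0.039). Nmnat3, with -1.49 at P7, had 4.04 and 4.61 FPKM in the knockout, against 0.167 and 0.498 FPKM in the controls (limma adjusted p = 0.00391).

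The other 10 were called at neither stage. Dcpp3 had 1.04 at P7, against a change of -1.18 in full-grown oocytes. The P7 changes of Tmem116, Alg14 and Hist1h1c were 2.45, 1.78 and 1.46, beside full-grown changes of -0.54, -0.15 and -0.93. The maternal-effect genes Zar1 and Ooep had 0.55 and 0.52 at P7, beside -1.13 and -0.85 later. Kdm1a had 0.80, Rpa3 0.73 and Ndufc1 0.60 at P7, beside -0.23, -0.21 and -0.58 later, and Oas1d had -0.46 at P7, beside 0.14 later.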

How the results depend on the processing

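Against 9 calls by limma, the alternatives gave 6 with a pseudocount of 0.1, 12 with a pseudocount of 5, 10 with robust variances, 16 with a filter of 5 FPKM, 0 without a filter (959 at an unadjusted p of 0.05) and 0 without a variance trend (825 at an unadjusted p of 0.05). Quantile normalization gave 6 higher and 1 lower and median-ratio rescaling 7 higher and none lower, beside 8 and 1. The filter of 5 FPKM gave 9 higher and 7 lower, so the lean toward rises depended on the settings. Leaving out each library in turn gave from 5 calls (without control replicate 2) to 16 (without knockout replicate 2), 13 without knockout replicate 1 and 10 without control replicate 1, the lone library being assumed to vary like the others. Summing entries of shared sequence, chosen after seeing the data, gave 4. Some named genes that did not pass in the main fit passed in an alternative. With the filter of 5 FPKM these included Shisa5, Wtap, Tesc, H2-K1, Mtfr2 and Tmem116 (limma adjusted p from 0.0152 to 0.0471). Wtap also passed with quantile normalization (limma adjusted p = 0.0377). With a pseudocount of 5, Shisa5, Tmem116 and Oog3 passed (limma adjusted p from 0.037 to 0.0495).

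Same-numbered libraries had a correlation of 0.0416 across genes between their deviations. With 2 libraries per group this cannot show whether they were collected or processed as pairs, and the labels do not say. A replicate block gave 129 calls, 54 higher and 75 lower, and 16 rather than 5 within the lists. Calls within the lists were 3 with a pseudocount of 0.1, 0 without a filter or a variance trend, 1 with summed entries and 3 to 4 with a library left out. Gm15772, Dcpp1, Dcpp2 and Gm1943 were called in 11 of 13 alternatives each (the summed entries aside), Bglap in 9, Csrp1 in 8, Ccnb2 and Ier2 in 5 and the Tmem216 transcript in 3. Bglap and that transcript fall under the filter when a knockout library is left out. Fos had a change of 0.29 without knockout replicate 2 and -2.78 without knockout replicate 1. Setd2 was called in none and had no value under the 5 FPKM filter. Of the P7 calls, 1 to 2 were called in full-grown oocytes with a library left out there (1, Dcpp1, without knockout replicate 1); the fit of its 4 Setd2 libraries alone called 2 in the same direction and 2 in the other. The median SE was 0.489 for genes under 5 FPKM (1 call) and 0.154 for those at 100 FPKM or more (0 calls). The cause of these shifts was not tested.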
